A study of Mus musculus with 8 samples.

Results

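Genes that respond to glucocorticoids and to acute stress were followed through colon and small intestine of mice with and without ACKR2, a decoy receptor for CC chemokines that takes up and degrades its ligands rather than signalling as a chemokine receptor does. The set held 9 genes, Tsc22d3, Sgk1, Fkbp5, Klf9, Dusp1, Fos, Junb, Egr1 and Hspa1b, of the 18193 genes on the array. Every probe set that the platform annotation gave to exactly 1 of these genes was taken, which made 22 of 45101 probe sets. The genes were picked from earlier results on the same 8 arrays, chiefly from the difference between ACKR2KO and WT tissue without tumours. That difference is therefore described below without a test.

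The mice were C57BL/6, all were 110 days old, and 4 genotypes were compared in each tissue. ACKR2KO mice lacked ACKR2 (ACKR2-/-) and WT mice did not, and both gave non-tumour tissue. ACKR2KO_ApcMin mice (ACKR2-/- ApcMin/+) and ApcMin mice (ApcMin/+) carried the Min mutation in 1 copy of Apc, a brake on Wnt signalling, and both gave tumours that had arisen without treatment. Each array held RNA pooled from mice of 1 genotype and 1 tissue, so every group had 1 array and no replicate, and the number of mice in a pool was not given. Tumour arrays thus differed from non-tumour arrays in the ApcMin allele as well as in the tissue. The small-intestinal tumours were labelled as ileum, a detail that the labels of non-tumour small intestine do not give, so region and tumour cannot be told apart there.

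Glucocorticoids act through the glucocorticoid receptor, a transcription factor that HSP90 chaperones hold in the cytoplasm until hormone binds, and that then enters the nucleus and binds response elements near its target genes. Tsc22d3, Sgk1, Fkbp5, Klf9 and Dusp1 are among its common targets, and the intestine both responds to the hormone and makes some of its own. Fos, Junb and Egr1 are immediate early genes, which encode transcription factors and are switched on within minutes by growth factors, stretch or injury, often during the handling of a tissue. Hspa1b encodes an inducible HSP70 chaperone whose promoter is driven by heat shock factor.

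Upstream sequence of 4 of the genes is shown with a motif marked in each. The motifs are those of glucocorticoid response, cyclic AMP response or heat shock. The windows are 300 bases long, from 250 before to 50 after a transcript start, as given by RefSeq for GRCm38.p6, and 8 of the 9 genes had at least 1 window, 15 in all. In the Sgk1 window at chr10:21993640-21993939 (plus strand) the capitals mark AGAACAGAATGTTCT, a full match to the palindromic glucocorticoid response element (AGAACA, 3 bases of any kind and TGTTCT), which lies 189 to 175 bases before the start. In the Dusp1 window at chr17:26508423-26508722 (minus strand) they mark TGACGTCA, the cyclic AMP response element, 143 to 136 bases before the start. In the Fos window at chr12:85473640-85473939 (plus strand) they mark TGACG, the core of that element, which begins 129 and 66 bases before the start. In the Hspa1b window at chr17:34959189-34959488 (minus strand) they mark GAANNTTC, a pair of inverted heat shock units, 104 to 97 bases before the start.
Sgk1: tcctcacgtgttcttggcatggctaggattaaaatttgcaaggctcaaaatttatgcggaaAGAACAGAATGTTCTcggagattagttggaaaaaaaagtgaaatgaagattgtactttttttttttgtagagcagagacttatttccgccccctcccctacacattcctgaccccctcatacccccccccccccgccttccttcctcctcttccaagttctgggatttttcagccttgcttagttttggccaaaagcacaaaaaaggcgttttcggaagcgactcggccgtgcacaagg
Dusp1: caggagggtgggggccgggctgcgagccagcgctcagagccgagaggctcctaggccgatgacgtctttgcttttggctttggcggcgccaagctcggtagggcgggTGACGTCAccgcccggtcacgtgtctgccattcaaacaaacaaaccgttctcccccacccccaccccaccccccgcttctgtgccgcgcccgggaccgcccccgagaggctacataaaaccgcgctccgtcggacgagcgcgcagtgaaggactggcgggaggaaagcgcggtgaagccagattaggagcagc
Fos: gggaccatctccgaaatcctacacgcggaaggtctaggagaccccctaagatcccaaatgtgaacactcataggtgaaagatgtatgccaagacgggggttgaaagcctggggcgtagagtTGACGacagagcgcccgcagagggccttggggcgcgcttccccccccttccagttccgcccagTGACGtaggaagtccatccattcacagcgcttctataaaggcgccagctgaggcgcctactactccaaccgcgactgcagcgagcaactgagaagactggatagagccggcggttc
Hspa1b: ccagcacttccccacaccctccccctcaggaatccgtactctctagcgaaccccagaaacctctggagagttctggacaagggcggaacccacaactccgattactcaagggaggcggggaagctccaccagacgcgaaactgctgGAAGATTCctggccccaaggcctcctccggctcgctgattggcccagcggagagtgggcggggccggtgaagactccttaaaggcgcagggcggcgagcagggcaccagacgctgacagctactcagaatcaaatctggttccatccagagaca
Both strands of 32851 windows were searched for the same letters. Shares are per window, and Sgk1 had 6 of the 15 windows of these genes, so it had more places for a match than the others. The full glucocorticoid response element was in 3 of the 32851 windows (0.00913%), and of the 8 genes with a window Sgk1 held it, in 1 window. Its core ACANNNTGT, which every match of the longer motif contains, was in 6.85% of windows and in 2 windows of Sgk1. TGACGTCA was in 1.79% of windows and in Dusp1, and TGACG, which overlaps it, was in 20.8% of windows and in Dusp1, Fos, Junb, Klf9, Sgk1 and Tsc22d3. GAANNTTC was in 7.86% of windows and in Hspa1b and Sgk1, where 1 of the matches overlaps the glucocorticoid response element. TTCNNGAA, the same heat shock units in the other order, was in 8.52% of windows and in Sgk1. The CArG box, to which serum response factor binds, was in 1.63% of windows and in 0 of the 15 windows of these genes. Egr1 had 0 windows and was not searched. Sequence more than 250 bases before a start was not searched for any gene, so the box may lie outside the windows. A match describes the sequence and is not a measured binding site.

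Signals are in the arbitrary linear units of the arrays. A difference is given as log2, so that 1 is 2-fold. Signals under 64.1, the floor, were set to it before log2 was taken. Where a gene had several probe sets, the brightest was used for tests and is called the chosen one. All 9 genes were above the floor in all 8 arrays with their chosen probe set, and 20 of the 22 probe sets were above it in at least 2 arrays. Across arrays the median signal ran from 85.5 to 133.1. Ackr2 itself was near the floor, at 153 in ACKR2KO and 116 in WT colon, 71.3 in ACKR2KO and 107 in WT small intestine, and 76.4 to 122 in tumours. The sources do not say whether its probe set lies in the deleted stretch, so it checks no genotype.

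The pools differed in sex markers and in measures of RNA integrity. Eif2s3y, a gene of the Y chromosome, read 897 to 1501 in ACKR2-deficient pools and 888 and 914 in ApcMin tumours, against 2.92 and 2.66, under the floor, in WT tissue. Xist, which is made from an inactive X, read 77.9 and 127 in ACKR2KO_ApcMin tumours, against 2818 to 9809 in all other pools. Tsc22d3 lies on the X chromosome. The 3'/5' signal ratio of Actb was 1.28 to 1.39 in the 4 arrays from ACKR2-deficient mice and 1.13 to 1.17 in the others. That of Gapdh ran the other way in non-tumour tissue, at 0.740 and 0.822 in ACKR2KO against 0.856 and 0.952 in WT colon and small intestine, and was 0.797 and 0.866 in ACKR2KO_ApcMin against 0.772 and 0.793 in ApcMin tumours. These values moved with ACKR2 loss and with tumours, and their part in each result below was not tested.

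Among the genes that glucocorticoids induce, Tsc22d3 and Sgk1 were several-fold higher in ACKR2KO than in WT tissue of both colon and small intestine, Fkbp5 was higher by less, and Klf9 and Dusp1 were not. Tsc22d3 encodes GILZ, a leucine zipper protein that restrains NF-kB and AP-1. Its chosen probe set, 1420772_a_at, had 4438 in ACKR2KO and 1329 in WT colon, and 3985 in ACKR2KO and 911 in WT small intestine. The log2 difference was 1.74 in colon (3.34-fold) and 2.13 in small intestine (4.37-fold). In tumours the same probe set had 1100.1 in ACKR2KO_ApcMin and 1156 in ApcMin colon, and 2345 in ACKR2KO_ApcMin and 1652 in ApcMin small intestine. The 2 non-tumour ACKR2KO arrays were thus the highest of the 8 and WT small intestine was the lowest.

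The other Tsc22d3 probe sets differed in how far they followed. Probe set 1425281_a_at had 2825 in ACKR2KO and 789 in WT colon, and 2998 in ACKR2KO and 712 in WT small intestine, log2 differences of 1.84 and 2.07. In tumours it had 526 in ACKR2KO_ApcMin and 836 in ApcMin colon, and 1717 in ACKR2KO_ApcMin and 1037 in ApcMin small intestine. It had the same 2 arrays at the top as the chosen probe set, and its lowest was the ACKR2KO_ApcMin colon tumour array. Probe set 1425557_x_at, of a type that Affymetrix marks with _x because some of its probes may bind other transcripts, had 436 in ACKR2KO and 288 in WT colon, and 541 in ACKR2KO and 301 in WT small intestine. Its tumour values were 360 in ACKR2KO_ApcMin and 445 in ApcMin colon, and 401 in ACKR2KO_ApcMin and 312 in ApcMin small intestine. The log2 differences between ACKR2KO and WT were 0.60 and 0.85, the same direction at a smaller size, and the ApcMin colon tumour array lay above ACKR2KO colon. Probe set 1444365_at was above the floor in WT colon, at 68.1, and in ApcMin small-intestinal tumours, at 64.4, and between 24.3 and 51.3 in the other 6 arrays. It therefore gave no measured difference. Over the 8 arrays the log2 signals of these probe sets correlated with the chosen one at Pearson's r = 0.97, 0.68 and -0.21, in the order given.

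**Figure D1:**
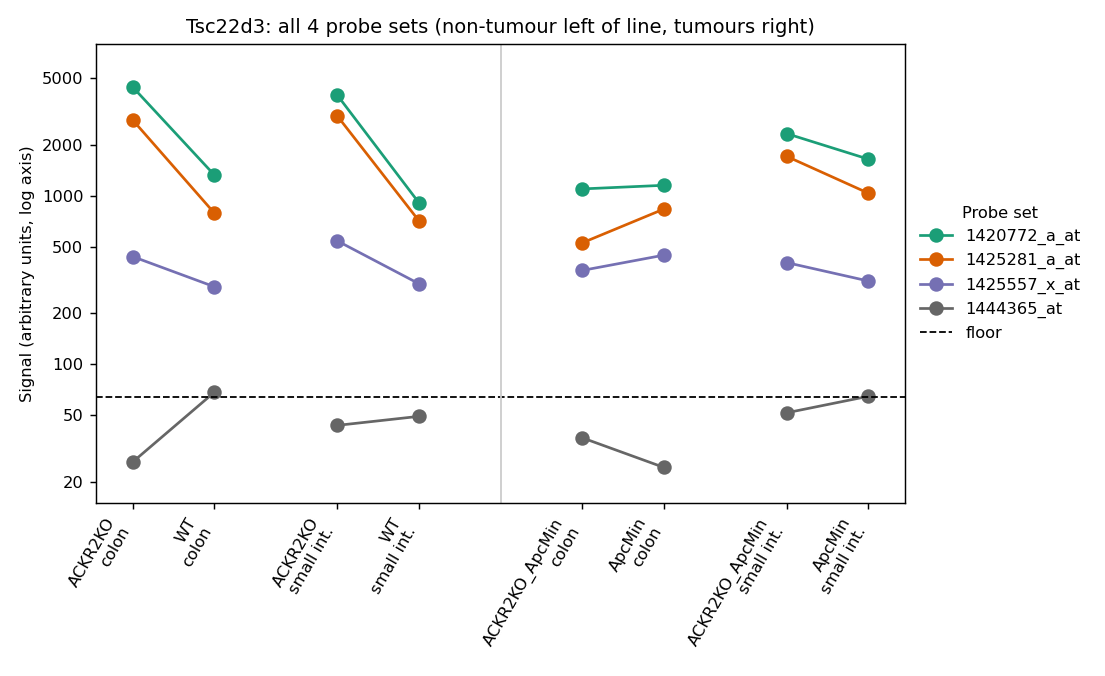
Signal (log axis, arbitrary units) of the 4 Tsc22d3 probe sets on each of the 8 arrays, with lines joining the ACKR2-deficient and ACKR2-bearing pools of a tissue and a dashed line at the floor. The 3 probe sets above the floor on all arrays lie higher in ACKR2KO than WT in both non-tumour tissues, and in colon tumours all 3 lie lower in ACKR2KO_ApcMin than ApcMin as deposited, though the chosen one turned to 0.19 above under median centring.

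Sgk1 encodes a kinase that raises sodium uptake through epithelial channels and is induced by glucocorticoids and mineralocorticoids. It had 12266 in ACKR2KO and 2785 in WT colon, and 15718 in ACKR2KO and 5798 in WT small intestine. The log2 difference was 2.14 in colon (4.41-fold) and 1.44 in small intestine (2.71-fold). In tumours it had 2525 in ACKR2KO_ApcMin and 3251 in ApcMin colon, and 11650.5 in ACKR2KO_ApcMin and 7148 in ApcMin small intestine. From high to low the arrays ran ACKR2KO small intestine, ACKR2KO colon, the tumours of small intestine, WT small intestine and then the other colon arrays.

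Fkbp5 encodes FKBP51, a co-chaperone that lowers the affinity of the glucocorticoid receptor for hormone. It had 3757 in ACKR2KO and 2599 in WT colon, and 2916 in ACKR2KO and 1781 in WT small intestine, log2 differences of 0.53 and 0.71. These were under the 2-fold threshold used for both tissues, and were 1.16 and 1.18 when arrays were centred on their medians. In tumours it had 662 in ACKR2KO_ApcMin and 1858 in ApcMin colon, and 1715 in ACKR2KO_ApcMin and 1979 in ApcMin small intestine. The ACKR2KO_ApcMin colon tumour array was the lowest of the 8 by a wide gap, and ACKR2KO colon was the highest. A further probe set, 1448231_at, correlated with it at r = 0.99 and gave differences of 0.81 and 0.70, and 1447736_at was under the floor on all 8 arrays.

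Klf9, a zinc finger transcription factor that several steroid hormones induce, had 7538 in ACKR2KO and 8056 in WT colon, and 4309.8 in ACKR2KO and 4081 in WT small intestine. Its tumour values were 2625 in ACKR2KO_ApcMin and 3165 in ApcMin colon, and 2109 in ACKR2KO_ApcMin and 3112 in ApcMin small intestine. The 4 non-tumour arrays thus all lay above the 4 tumour arrays. The log2 differences between ACKR2KO and WT were -0.10 and 0.08, and the first turned to 0.54 under median centring and the second to -0.09 under quantile normalization. Klf9 had 7 probe sets, and they disagreed. Probe set 1436952_at gave 1.20 in colon and 0.73 in small intestine, while 1422264_s_at, of the _s type that can bind several transcripts, gave -0.56 and -1.17. Of the others, 1428289_at, 1456341_a_at and 1436763_a_at lay between 0.08 and 0.71 in both tissues, and 1452723_at was above the floor on 1 array.

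Dusp1 encodes MKP-1, a phosphatase that switches off MAP kinases, and is both glucocorticoid-induced and immediate early. It had 1509 in ACKR2KO and 2298 in WT colon, and 695 in ACKR2KO and 828 in WT small intestine. The log2 differences were -0.61 and -0.25, and under median centring they turned to 0.03 and 0.21. In tumours it had 1345 in ACKR2KO_ApcMin and 2634 in ApcMin colon, and 893 in ACKR2KO_ApcMin and 863 in ApcMin small intestine. Each of the 4 colon arrays was above each of the 4 small-intestinal arrays.

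**Figure D2:**
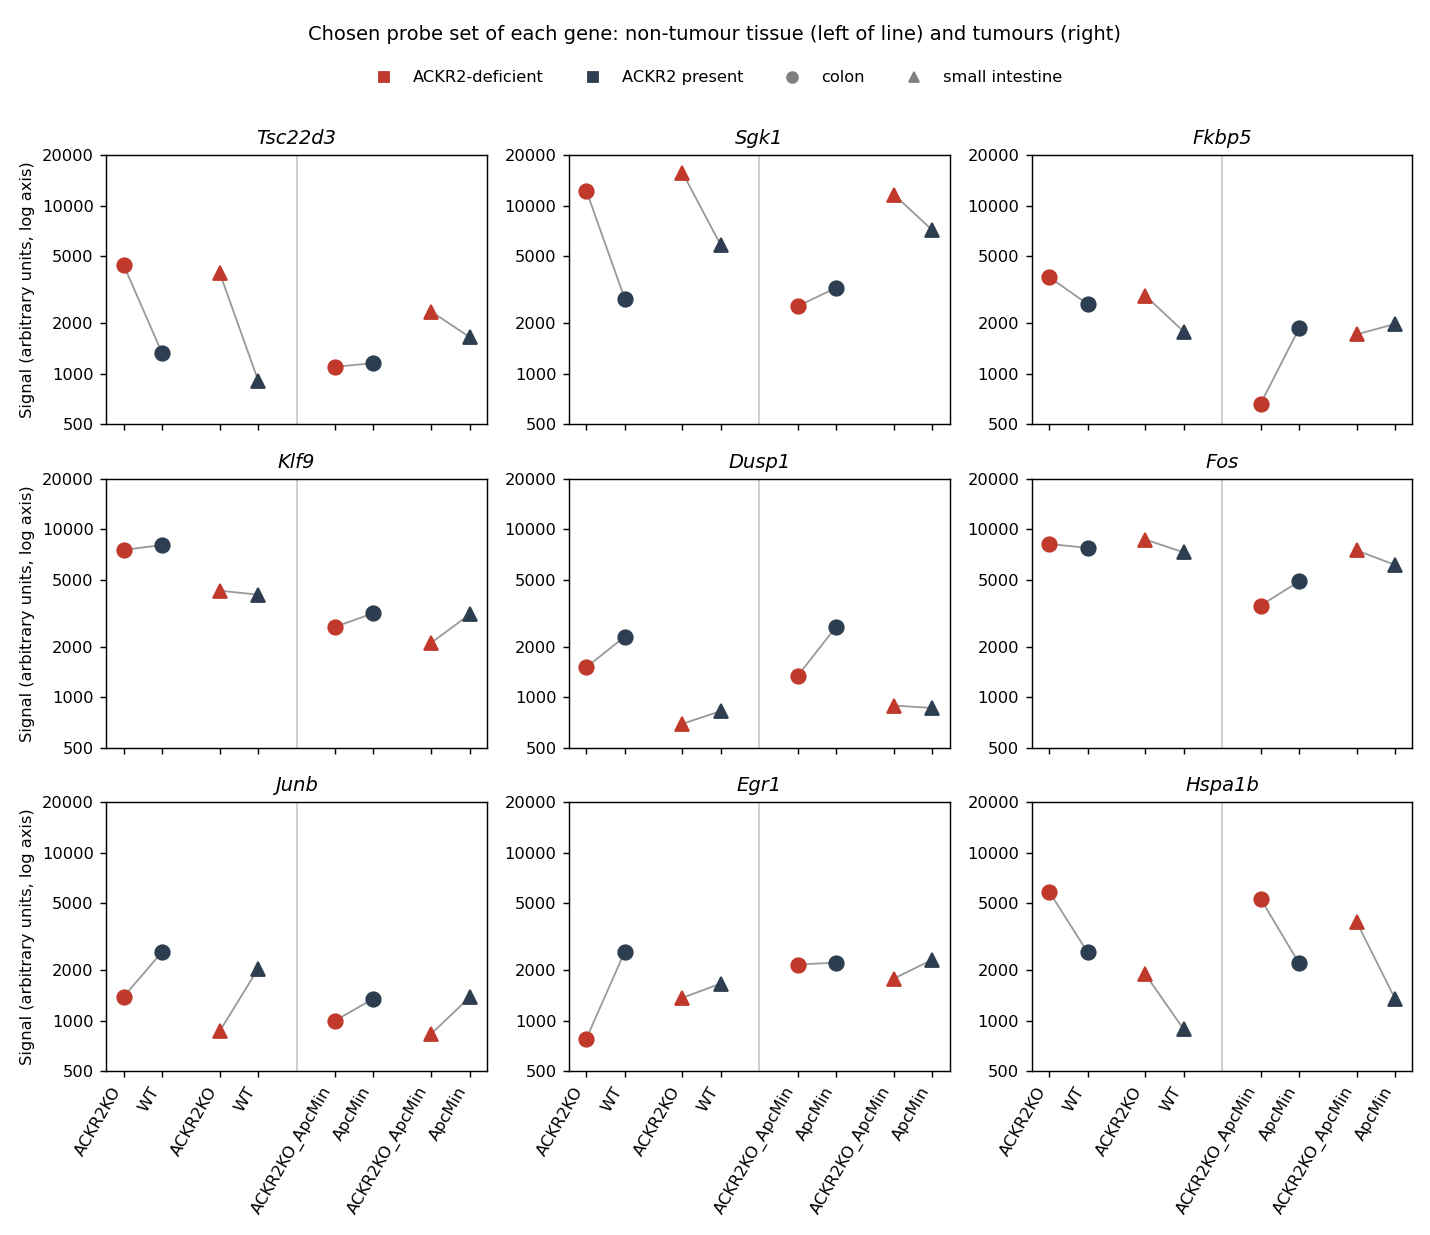
Signal of the chosen probe set of each of the 9 genes (log axis, arbitrary units), with red for ACKR2-deficient and dark for ACKR2-bearing pools, circles for colon and triangles for small intestine, and lines joining the pair of a tissue. Tsc22d3 and Sgk1 are 2.71- to 4.41-fold higher in ACKR2KO than WT non-tumour tissue, and Hspa1b is higher in the ACKR2-deficient pool of all 4 pairs.

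The immediate early genes had none of the several-fold higher levels of Tsc22d3 and Sgk1 in ACKR2KO tissue. Fos, a subunit of AP-1, had 8177 in ACKR2KO and 7747 in WT colon, and 8685 in ACKR2KO and 7289 in WT small intestine. The log2 differences were 0.08 and 0.25, and under quantile normalization they turned to -0.06 and -0.02. Its tumour values were 3516 in ACKR2KO_ApcMin and 4889 in ApcMin colon, and 7477 in ACKR2KO_ApcMin and 6134 in ApcMin small intestine, so that both colon tumour arrays were the lowest of the 8.

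Junb, another AP-1 subunit, was lower in ACKR2KO. It had 1391 in ACKR2KO and 2569 in WT colon, and 868 in ACKR2KO and 2045 in WT small intestine. The log2 differences were -0.89 and -1.24, the first just inside 2-fold, and they were -1.01 and -1.15 under quantile normalization and -0.25 and -0.77 under median centring. In tumours Junb had 1001 in ACKR2KO_ApcMin and 1355 in ApcMin colon, and 835 in ACKR2KO_ApcMin and 1380.3 in ApcMin small intestine. The 2 WT arrays were the highest of the 8.

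Egr1, a zinc finger transcription factor, had 784 in ACKR2KO and 2584 in WT colon, and 1372 in ACKR2KO and 1667 in WT small intestine. The log2 difference was -1.72 in colon and -0.28 in small intestine, and the second turned to 0.19 under median centring. Its tumour values were 2162 in ACKR2KO_ApcMin and 2220.1 in ApcMin colon, and 1785 in ACKR2KO_ApcMin and 2312 in ApcMin small intestine. ACKR2KO colon was the lowest array and WT colon the highest.

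Hspa1b was higher with ACKR2 loss in every pair. Its chosen probe set, 1452318_a_at, had 5880.3 in ACKR2KO and 2558 in WT colon, and 1896 in ACKR2KO and 889 in WT small intestine, log2 differences of 1.20 (2.30-fold) and 1.09 (2.13-fold). In tumours it had 5329 in ACKR2KO_ApcMin and 2201 in ApcMin colon, and 3864 in ACKR2KO_ApcMin and 1351 in ApcMin small intestine. The other probe sets had the same direction at smaller sizes. Probe set 1427127_x_at had 3545 in ACKR2KO and 3196 in WT colon, and 968 in ACKR2KO and 836 in WT small intestine, differences of 0.15 and 0.21. Probe set 1427126_at had 3008 in ACKR2KO and 2059 in WT colon, and 742 in ACKR2KO and 481 in WT small intestine, differences of 0.55 and 0.62. Hspa1a is a near-identical copy of Hspa1b, so signal on these probe sets cannot be given to 1 of the copies with certainty.

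**Figure D3:**
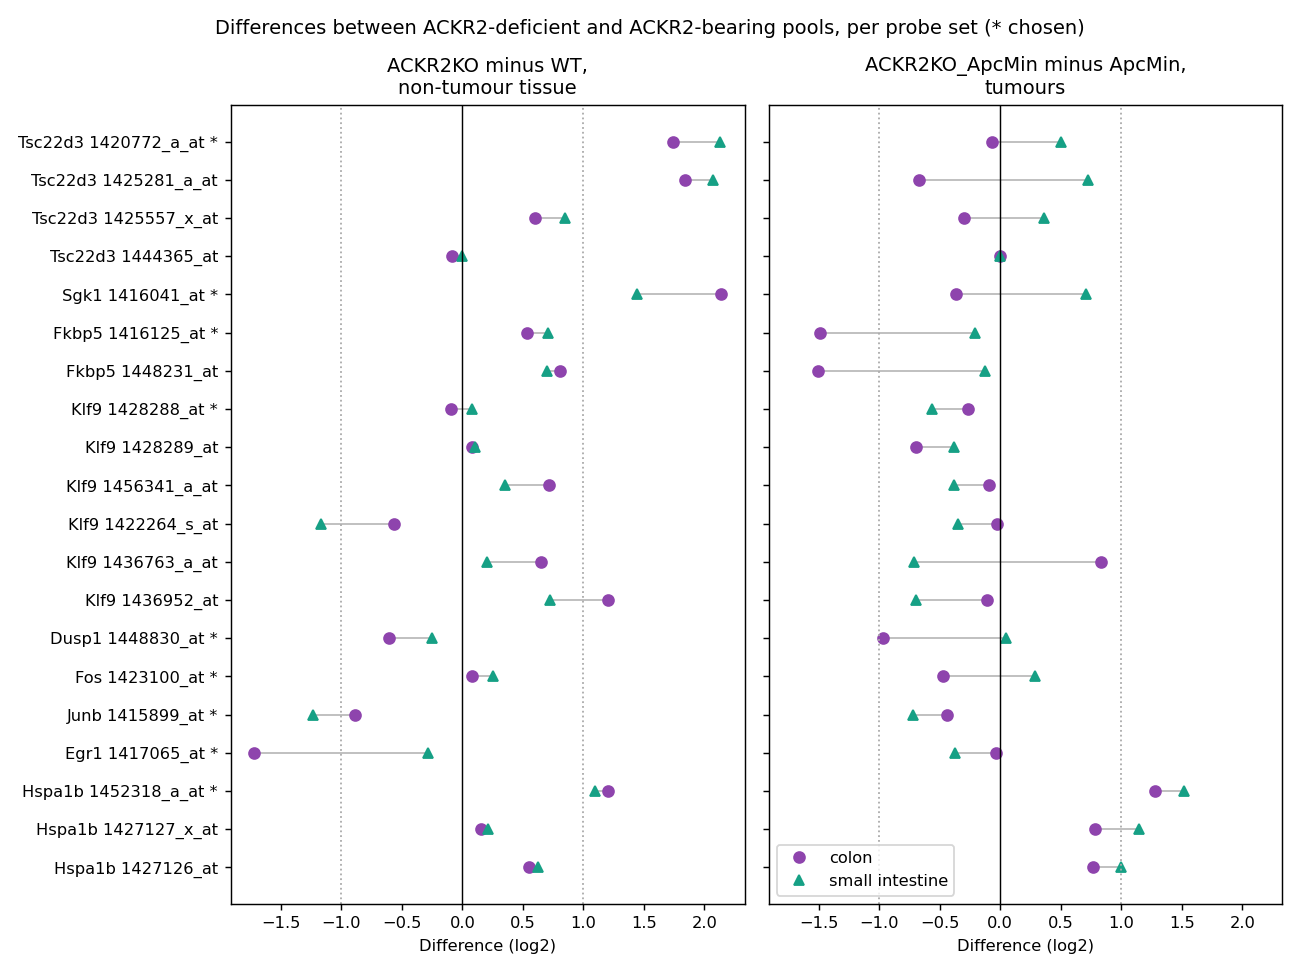
Log2 difference between ACKR2-deficient and ACKR2-bearing pools for each probe set above the floor in at least 2 arrays, in non-tumour tissue (left) and tumours (right), with purple circles for colon, green triangles for small intestine, an asterisk for the chosen probe set and dotted lines at 2-fold. Among chosen probe sets, Tsc22d3, Sgk1 and Hspa1b pass 2-fold in both non-tumour tissues and Hspa1b does in both tumour pairs, while probe sets 1425557_x_at, 1427127_x_at and 1427126_at of these genes stay under it in non-tumour tissue.

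In both tissues together, 3 of the 9 genes, Tsc22d3, Sgk1 and Hspa1b, were at least 2-fold higher in ACKR2KO than WT, and 0 were at least 2-fold lower. Of all 14027 genes tested, 0.371% were higher by that rule and 2.19% were lower. The genes were chosen for this difference, so nothing is read from the count. With the mean of a gene's probe sets in place of the brightest, 2 genes passed: the difference averaged over both tissues was then 0.64 for Hspa1b and 1.14 for Tsc22d3, in place of 1.15 and 1.93. Under quantile normalization Junb, at -1.01 and -1.15, was at least 2-fold lower in both tissues. The genes nearest the threshold on its outer side were Fkbp5, at 0.53 and 0.71, and Junb, at -0.89 and -1.24. In colon alone 3 genes were at least 2-fold higher and 1 lower, against 1.98% and 5% of all genes, and in small intestine the numbers were again 3 and 1, against 1.57% and 6.8%. Centring each array on its median added 0.63 in colon and 0.47 in small intestine to the ACKR2KO minus WT difference of genes above the floor, so small negative differences turned positive. The differences of Tsc22d3, Sgk1 and Hspa1b were then 2.37 and 2.60, 2.77 and 1.91, and 1.83 and 1.56, in colon and small intestine in that order.

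Some markers of other cell types moved with the same difference. Of 7 B and plasma cell markers, 2 were at least 2-fold lower in ACKR2KO in both tissues, against 2.19% of all genes. They were Cd79a, with log2 differences of -2.57, the ACKR2KO array being under the floor, and -2.04, and Cd79b, with -1.78 and -1.43. In small intestine Jchain and Mzb1 went the other way, at 0.12 and 0.23. The summed signals of this list were 10097 in ACKR2KO and 14868 in WT colon, but 21905 in ACKR2KO and 21209 in WT small intestine. All 6 endothelial markers tested were lower in the ACKR2-deficient pool of all 4 pairs, with summed signals of 1494 in ACKR2KO and 2276 in WT colon and of 869.9 in ACKR2KO and 1643 in WT small intestine. Of all genes 19.1% were lower in all 4 pairs. The endothelial count was 4 of 6 under quantile normalization, against 13.3%, and 2 of 6 under median centring, against 3.73%. Of 6 fibroblast markers, 4 were lower in all 4 pairs, and 3 were under median centring. Lum and Dcn went the other way in non-tumour tissue. Lum had 0.97 in colon and 0.60 in small intestine, and Dcn had 0.16 in each. All 4 adipocyte markers tested were at least 2-fold lower in ACKR2KO colon, against 5% of all genes, with a summed signal of 5260.4 in ACKR2KO and 13079 in WT colon, and in small intestine the sums were 10721 and 10213 for ACKR2KO and WT. Single markers, named after their values were seen, stood further apart: Car1 differed by -8.20 in small intestine, with ACKR2KO set to the floor, and Ang4, a Paneth cell marker, by -7.92 in colon. Their lists did not follow as a whole. Of 6 colonocyte markers 2 were at least 2-fold lower in ACKR2KO small intestine, against 6.8% of all genes, with a list median of 0. Of 5 Paneth cell markers 2 were at least 2-fold lower in ACKR2KO colon, against 5%, with a list median of -0.70. The part of these cells in the results was not tested. In pooled tissue, fewer cells of a type and less RNA per cell cannot be told apart.

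The same genotype difference was measured again in tumours, in arrays outside the contrast that chiefly chose the genes. The spread behind its standard errors and p-values came partly from the non-tumour pairs, so these are not independent of the choice. Hspa1b had the largest fitted difference of the 9. Its chosen probe set was 1.28 higher on the log2 scale in ACKR2KO_ApcMin than ApcMin colon tumours (2.42-fold) and 1.52 higher in small-intestinal tumours (2.86-fold). The fitted effect was 1.40 ± 0.14 (SE), and the limma adjusted p was 0.0926, which missed the threshold of 0.05. It was 1 of 9 genes at least 2-fold higher in both tumour pairs, against 0.207% of all genes, and 0 were 2-fold lower in both, against 1.32%. Probe set 1427127_x_at had 2447 in ACKR2KO_ApcMin and 1425 in ApcMin colon tumours, and 2017 in ACKR2KO_ApcMin and 908 in ApcMin small-intestinal tumours. Probe set 1427126_at had 1765 in ACKR2KO_ApcMin and 1036 in ApcMin colon tumours, and 1410.3 in ACKR2KO_ApcMin and 705 in ApcMin small-intestinal tumours, so all 3 probe sets had the same direction. With all arrays kept, the adjusted p of Hspa1b was under 0.05 with no floor, at 0.042, and with genes above the floor on all arrays, at 0.0207, and it was 0.0697 to 0.345 in the other settings of the same model.

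The high levels of Tsc22d3 and Sgk1 in ACKR2KO tissue had no called counterpart in tumours. Tsc22d3 differed by -0.07 in colon and 0.50 in small-intestinal tumours, and the first turned to 0.19 under median centring. The fitted effect was 0.22 ± 0.20 (SE, limma adjusted p = 0.622). Sgk1 differed by -0.36 and 0.70, with a fitted effect of 0.17 ± 0.29 (limma adjusted p = 0.821) that was -0.01 under quantile normalization. For both genes the colon tumour pair thus lay below 0 and the small-intestinal pair above, as deposited.

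Fkbp5 was lower in ACKR2KO_ApcMin than ApcMin tumours, by 1.49 on the log2 scale in colon and by 0.21 in small intestine, where median centring turned it to 0.10. The fitted effect was -0.85 ± 0.29 (limma adjusted p = 0.269). Junb had -0.44 and -0.72 and a fitted effect of -0.58 ± 0.17 (limma adjusted p = 0.225). Klf9, Dusp1, Fos and Egr1 had fitted effects between -0.46 and -0.09, with limma adjusted p-values from 0.278 to 0.871, and those of Fos and Egr1 turned positive under median centring, at 0.19 and 0.08.

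Of the 9 genes, 0 passed limma at an adjusted p under 0.05 for the ACKR2 effect in tumours, and 4 had an unadjusted p under 0.05. Of all genes, 4 passed, all of them lower, which is 0.0285%, and 2184 had an unadjusted p under 0.05. The median effect of the 9 genes was -0.21 and that of all genes was -0.03. Counted over both tissues and both states, 1 of 9 genes, Hspa1b, was higher with ACKR2 loss in all 4 pairs and 2, Junb and Egr1, were lower, against 13.5% and 19.1% of all genes. The non-tumour pairs in that count were those that chose the genes, and under median centring Egr1 did not hold its direction. With 1 array per group, limma took its spread from how far the ACKR2 effect differed between colon and small intestine, on 2 residual degrees of freedom. Both the tumour and the non-tumour pairs entered that spread. Smooth muscle and mast cell markers moved with the tumour pairs, with list medians of -2.09 and 1.12 for the ACKR2 effect, and 1 of 9 and 0 of 6 markers were called; their part was not tested. The labels do not say whether colon and small intestine came from the same mice, and an adjusted p here carries no estimate of the variation between mice.

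Several of the genes fell in tumours. Averaged over both tissues, Klf9 fell by 1.07 ± 0.11 on the log2 scale (SE, limma adjusted p = 0.00273), Fos fell by 0.59 ± 0.15 (adjusted p = 0.0358) and Junb fell by 0.50 ± 0.12 (adjusted p = 0.0298). In all, 5 of the 9 genes were called lower by limma and 0 higher, against 11.9% and 13.1% of all genes. The other 2 were Tsc22d3 and Fkbp5, so the count rests partly on the choice of the genes and nothing is read from it. These comparisons share the non-tumour arrays with the contrast that chose the genes, and for Tsc22d3, Sgk1 and Fkbp5, chosen for high values in ACKR2KO, part of a fall is fixed by the choice, so their values are given below without a test. Junb was high in the WT arrays of that contrast, so part of its fall can be fixed by the choice too. Its difference was -0.92 in colon and -0.57 in small intestine in the ACKR2-bearing pairs. In the ACKR2-deficient pairs it was -0.47 and -0.06. Hspa1b had 0.32 ± 0.10 (limma adjusted p = 0.0655), and Dusp1 and Egr1 had 0.11 and 0.52 with adjusted p-values of 0.690 and 0.149. The median effect of the 9 genes was -0.53 and that of all genes was 0.03.

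In colon the same 5 genes were called lower, and the limits given above for the count and for Junb hold here too. Klf9 fell by 1.43 ± 0.15 (limma adjusted p = 0.00368), and its levels were 2625 and 3165 in ACKR2KO_ApcMin and ApcMin tumours against 7538 and 8056 in ACKR2KO and WT tissue. All 6 Klf9 probe sets that were tested fell in colon tumours, with limma adjusted p-values from 0.00383 to 0.029 in a fit of every probe set, where 10.9% of 25776 probe sets were called lower. Fos fell by 0.94 ± 0.21 (limma adjusted p = 0.0263) and Junb by 0.70 ± 0.17 (adjusted p = 0.0326). Over all genes 12.6% were called lower and 11.1% higher in colon tumours. The median of the 9 genes was -0.94 and that of all genes was 0.00.

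The pairs behind these values were unequal for some genes and alike for others. In colon, Klf9 differed by -1.52 between ACKR2KO_ApcMin tumours and ACKR2KO tissue and by -1.35 between ApcMin tumours and WT tissue. Tsc22d3 had -2.01 in the first of these pairs and -0.20 in the second, Fkbp5 had -2.50 and -0.48, and Sgk1 had -2.28 and 0.22. In small intestine the ACKR2-deficient pair of Tsc22d3 had -0.77 and the ACKR2-bearing pair 0.86. Most of the tumour difference of these 3 genes in colon thus lay in the ACKR2-deficient pair, whose non-tumour array is 1 of those that chose the genes. The Tsc22d3 probe sets differed as well, since the fitted colon tumour effect was -1.11 for the chosen one, -1.17 for 1425281_a_at and 0.18 for 1425557_x_at. Without both ACKR2KO_ApcMin arrays the comparison left was ApcMin tumours minus WT tissue, which for Tsc22d3 averaged over tissues was 0.33.

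In small intestine 1 of the 9 genes was called, Hspa1b, which rose by 0.82 ± 0.14 (limma adjusted p = 0.0380), against 2.72% of all genes called higher and 1.18% lower. It had 3864 and 1351 in ACKR2KO_ApcMin and ApcMin tumours, against 1896 and 889 in ACKR2KO and WT tissue. The other probe sets had 0.74 (1427126_at, adjusted p = 0.0697) and 0.59 (1427127_x_at, adjusted p = 0.122) in the limma fit of every probe set and were not called. Under median centring the effect of Hspa1b was 0.62 (limma adjusted p = 0.099) and Klf9, at -0.91 (adjusted p = 0.030), was called instead. As deposited Klf9 had -0.71 ± 0.15 (limma adjusted p = 0.0617), and the other 7 genes had adjusted p-values from 0.369 to 0.946. In colon tumours the chosen Hspa1b probe set had -0.18 ± 0.14 (limma adjusted p = 0.412), whereas the other probe sets, 1427126_at and 1427127_x_at, fell by 0.88 and 0.85 (adjusted p = 0.0146 and 0.0170 in the fit of every probe set).

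For the difference between the tumour effects in colon and in small intestine, 0 of the 9 genes were called by limma, against 2.15% of all genes, and 4 had an unadjusted p under 0.05, against 2666 of 14027 genes. Hspa1b had -0.99 (limma adjusted p = 0.0726). Leaving out any 1 of the 8 arrays left 1 residual degree of freedom, and then 0 of the 9 genes and 0 of all genes were called for any tumour effect. Smooth muscle markers were called lower in tumours, 9 of 9 in colon and 6 of 9 in small intestine, against 12.6% and 1.18% of all genes. Their summed signals were 8428 and 32696 in ACKR2KO_ApcMin and ApcMin colon tumours against 103684 and 122974 in ACKR2KO and WT colon. The part of this loss in the fall of Klf9, Fos or the other genes was not tested.

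**Figure D4:**
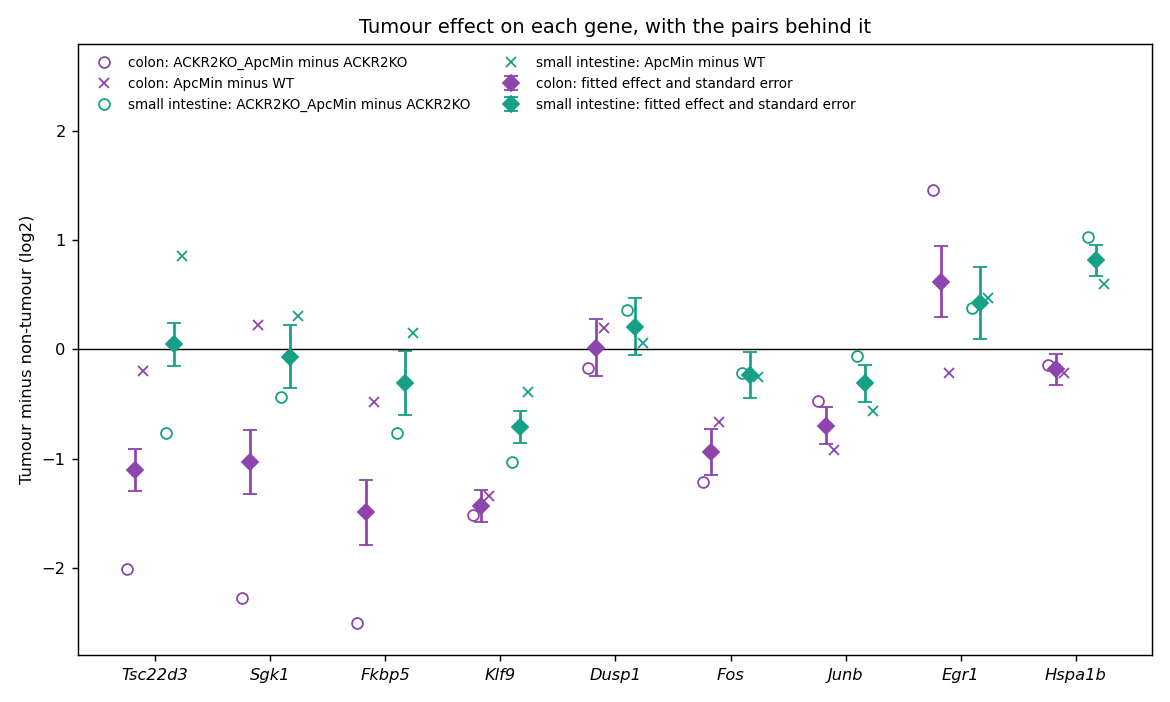
Tumour minus non-tumour difference (log2) of the chosen probe set of each gene, with purple for colon, green for small intestine, open circles for the ACKR2-deficient pair, crosses for the ACKR2-bearing pair, and diamonds with bars for the fitted effect and its standard error. The bars come from how far the ACKR2 effect differed between colon and small intestine and are not the spread of the pairs drawn. In colon both pairs of Klf9 lie near the fitted -1.43, while for Tsc22d3, Sgk1 and Fkbp5 the ACKR2-deficient pair lies between -2.01 and -2.50 and the ACKR2-bearing pair between -0.48 and 0.22.

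Colon and small intestine without tumours differed in 3 of the 9 genes, all higher in colon. Hspa1b was higher in colon by 1.58 ± 0.14 on the log2 scale (limma adjusted p = 0.00146), with 5880.3 and 2558 in ACKR2KO and WT colon against 1896 and 889 in ACKR2KO and WT small intestine. Dusp1 was higher by 1.29 ± 0.26 (limma adjusted p = 0.0203) and Klf9 by 0.89 ± 0.15 (adjusted p = 0.0107). Of all genes 12.9% were called higher and 8.38% lower in colon. Junb had 0.50 (limma adjusted p = 0.0864) and Sgk1 -0.71 (adjusted p = 0.142), and the other 4 genes missed the threshold too. The median of the 9 genes was 0.46 and that of all genes was 0.11. Of the tissue marker lists, the enterocyte list followed the labels, as summed signals of 6 small-intestinal enterocyte markers were 119792 and 140965 in ACKR2KO and WT small intestine against 1259 and 1359 in ACKR2KO and WT colon. Colonocyte markers went partly against them, with a summed signal of 75209 and 74490.1 in ACKR2KO and WT colon, but of 16754 in ACKR2KO and 34524 in WT small intestine. Car1 had 62.6 in ACKR2KO and 18864 in WT small intestine, the WT value lying near its 19254 and 19162 in ACKR2KO and WT colon. The WT small-intestinal array therefore held a colonocyte marker at colon level, and its part in the results was not tested.

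The pathway around these genes was read from 5 lists. For the glucocorticoid receptor and steroid handling, 9 genes were tested and 0 were at least 2-fold apart the same way in both tissues. Nr3c1, the glucocorticoid receptor, had 2286 in ACKR2KO and 1629 in WT colon and 4102 in ACKR2KO and 2956 in WT small intestine, differences of 0.49 and 0.47. Hsd11b1, which regenerates active hormone, had differences of 0.26 and 0.38, and Hsd11b2, which inactivates it, had -0.28 and -0.70. Under median centring the colon value of Hsd11b2 turned to 0.35. Nr3c2, the mineralocorticoid receptor, had -0.04 and 0.11, and the first turned to 0.59. Median centring put 3 of the 9 genes at least 2-fold higher in ACKR2KO in both tissues, and 6.44% of all genes. In colon tumours limma called 4 of the 9 genes lower and 2 higher, against 12.6% and 11.1% of all genes. Among the 4 were Nr3c2, Hsd11b2 and Nr3c1, with effects of -2.30, -1.73 and -0.87 (limma adjusted p = 0.00312, 0.00592 and 0.0377). Hsd11b2 was 2.79 higher in colon than in small intestine without tumours.

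Of 21 other genes that glucocorticoids induce, 0 were at least 2-fold apart the same way in both tissues, and the median difference between ACKR2KO and WT was 0.10 in colon and 0.13 in small intestine, against 0.00 for all genes in each. Per1, a clock gene with a glucocorticoid response element, had 797 in ACKR2KO and 949 in WT colon and 454 in ACKR2KO and 531 in WT small intestine. Zbtb16, a zinc finger repressor, had 1485 in ACKR2KO and 1797 in WT colon and 871 in ACKR2KO and 666 in WT small intestine. The differences of Per1, -0.25 and -0.23, turned to 0.38 and 0.24 under median centring, and those of Zbtb16 were -0.28 and 0.39, the first turning to 0.36. In all 4 pairs 3 of the 21 genes were higher with ACKR2 loss and 4 were lower, shares of 14.3% and 19% against 13.5% and 19.1% of all genes, and under median centring 9 were higher and 0 lower, against 37.6% and 3.73%. In colon tumours limma called 7 of the 21 lower and 2 higher, against 12.6% and 11.1% of all genes. The effects were -2.79 for Zbtb16 and -1.21 for Per1 (limma adjusted p = 0.00933 and 0.0129).

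Of 30 other immediate early genes, 1 was at least 2-fold lower in both tissues and 0 were higher. This was Jund, a further Jun-family subunit of AP-1, with 5820 in ACKR2KO and 16963 in WT colon and 5832 in ACKR2KO and 12717 in WT small intestine. Its tumour differences were -0.89 in colon and -0.83 in small intestine, and all 4 stayed below 0 under both other scalings. Nr4a1, an orphan nuclear receptor, had 287 in ACKR2KO and 1175 in WT colon and 152 in ACKR2KO and 296 in WT small intestine. Its differences were -2.03 and -0.96, and -1.40 and -0.49 under median centring. Jun had differences of -0.85 and -0.46, of which the second moved to 0.00 under median centring, and Atf3 had -0.74 in colon and 0.77 in small intestine. The list medians were -0.24 and -0.32, and 10 of 30 genes were lower with ACKR2 loss in all 4 pairs, against 19.1% of all genes. That count was 6 under quantile normalization, against 13.3%, and 1 under median centring, against 3.73%, so the direction of the list depends on the scaling. Median centring put 6 of the 30 genes (20%) higher in all 4 pairs, against 37.6% of all genes. In tumours against non-tumour tissue the list split, with 6 genes called higher and 6 lower in colon, and 4 higher and 0 lower in small intestine. Of all genes 11.1% were called higher and 12.6% lower in colon, and 2.72% and 1.18% in small intestine.

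Of 15 other heat shock genes, 8 were higher with ACKR2 loss in all 4 pairs, against 13.5% of all genes. Another 2, Bag3 and Serpinh1, were lower, against 19.1%. The 8 include Hspa1a, and the non-tumour pairs in the count are those that chose Hspa1b. For the ACKR2 effect in tumours limma called 0 of the 15, against 0.0285% of all genes. Under quantile normalization 8 of 15 were higher, against 19.2% of all genes, and under median centring 9 were, against 37.6%. Median centring also put 5 of the 15 at least 2-fold higher in ACKR2KO in both tissues, and 6.44% of all genes. Of the 15, 0 were 2-fold apart the same way in both non-tumour tissues. Hspa1a, the copy of Hspa1b, had 941 in ACKR2KO and 611 in WT colon and 399.6 in ACKR2KO and 291 in WT small intestine, and its tumour differences were 1.08 and 1.40, with limma adjusted p = 0.151 for the ACKR2 effect. Dnajb1, an HSP40 partner of HSP70, had 2302 in ACKR2KO and 1563 in WT colon and 1896 in ACKR2KO and 1339 in WT small intestine, and its tumour differences were 0.30 and 0.43. The list medians were 0.41 in colon, 0.46 in small intestine, 0.29 in colon tumours and 0.35 in small-intestinal tumours.

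**Figure D5:**
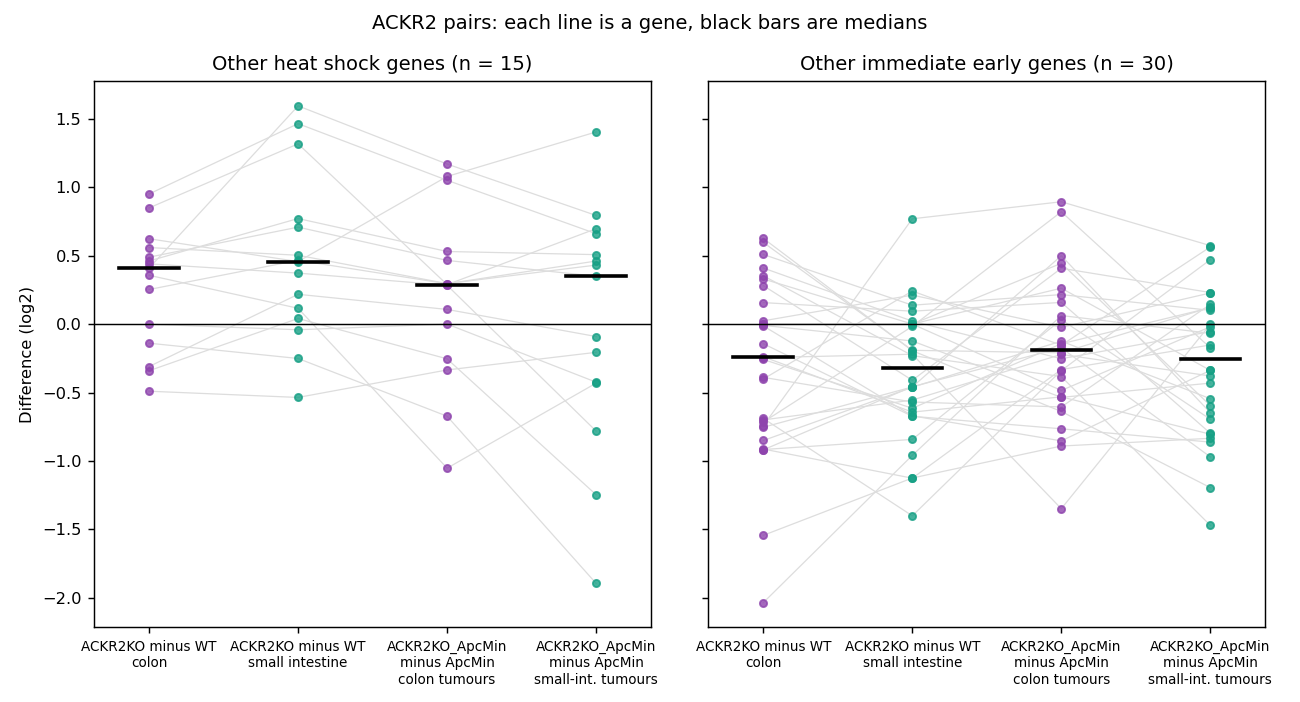
Log2 difference between ACKR2-deficient and ACKR2-bearing pools for 15 other heat shock genes (left) and 30 other immediate early genes (right), with a point for each gene, grey lines joining the same gene and black bars at the medians. The heat shock medians lie between 0.29 and 0.46 in the 4 pairs, and the immediate early medians lie below 0 as deposited, a direction that depends on the scaling.

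Of 10 genes tested among SGK1 relatives and sodium transport genes, 0 were at least 2-fold apart the same way in both tissues. Of the epithelial sodium channel subunits that SGK1 acts on, Scnn1b and Scnn1g were higher in ACKR2KO than in WT colon and Scnn1a was not, at 1926 in ACKR2KO and 2043 in WT colon. Scnn1g had 2208 in ACKR2KO and 467 in WT colon and was under the floor on all 4 arrays of small intestine. Scnn1b had 859.8 in ACKR2KO and 374 in WT colon and was under the floor in both non-tumour arrays of small intestine. Slc9a3, also of this list, went the other way in colon, with 310 in ACKR2KO and 702 in WT, a difference of -1.18. In colon alone 2 of the 10 genes were thus at least 2-fold higher and 1 lower, against 1.98% and 5% of all genes. In colon tumours Scnn1g fell by 3.69, with the ACKR2KO_ApcMin array set to the floor, and Scnn1b fell by 1.48 (limma adjusted p = 0.00720 and 0.0262). In all, 5 of the 10 genes were called lower there, against 12.6% of all genes. Slc9a3 rose by 2.52 (limma adjusted p = 0.00618) and was the 1 gene called higher, against 11.1%. The colonocyte markers include Scnn1b and Scnn1g, and of the other 4 markers Car4 and Slc26a3 fell too, with limma adjusted p-values of 0.0222 and 0.0244. The part of colonocytes was not tested.

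Over the 8 arrays, the genes of the set did not share 1 pattern. Tsc22d3 and Sgk1 correlated at r = 0.84 and Fkbp5 and Fos at r = 0.87, while Tsc22d3 and Egr1 had r = -0.76 and Sgk1 and Hspa1b r = -0.01. Among 8832 other genes whose levels spanned at least 1 on the log2 scale, those most like Tsc22d3 were Akap9 (r = 0.98), Ccdc68 (0.95) and H2-Ea (0.92). Those most like Sgk1 were Adtrp, Stk17b and Fas, each at 0.95. Fkbp5 was most like Cilk1 (0.98), Decr2 (0.97) and Ctdsp2 (0.97), and Hspa1b most like Dynlt3 (0.96), Snw1 (0.96) and Lyrm4 (0.95). Klf9 was most like Palld, Cacna2d2 and Ptgis, Junb like Ncam1, Srpk2 and Zfp626, and Fos like Rdh5, Clic5 and Vdr, all at 0.98 or 0.99. Dusp1 was most like Gsdmcl-ps, Stard5 and Foxd2 (0.97 to 0.98), and Egr1 like Zmym3, E030024N20Rik and Rrp12 (0.94 to 0.98). At least 0.9 was reached by 5 genes for Tsc22d3, 17 for Egr1 and 290 for Klf9. All these values come from the same 8 pooled arrays and share their tissue and tumour differences.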

How the data were processed

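Gene expression was measured on 8 Affymetrix arrays, 1 per genotype and tissue, from pooled total RNA labelled with the 3' IVT Express kit, per the labels. The deposited values were intensity values on the linear scale, 1 column per array, with 0 columns left unused. The authors made them with MAS5 and Partek, per the submitters' processing notes, which give no versions. Arrays came already scaled: their means were all 500.003 once 2% of values was trimmed from both tails. Such scaling fixes the trimmed mean and not the median.

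Control probe sets (64) were left out. Of the rest, 34945 had 1 gene, 932 several and 9160 none, and 34741 were matched by gene identifier. Values under the floor (64.1; the 40th percentile of an array, as the median of 8) were raised to it, and log2 was taken. The probe set with the highest mean stood for its gene, and 14027 genes above the floor in at least 2 arrays were tested. Contrasts came from 1 limma model (limma 3.58.1, R 4.3.3) with 6 coefficients: 4 intercepts and an ACKR2 effect each for tumours and for non-tumour tissue, with an empirical Bayes trend and 4.12 prior degrees of freedom. Tests were two-sided with Benjamini-Hochberg adjustment over all genes. The procedure was also run on data simulated from its own fitted values and spread. Such data hold no variation between mice, so that run does not check the design. Tables and plots were made with Python 3.11.15, pandas 2.3.3 and matplotlib 3.10.9. Precision is limited by the number of arrays.

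The 9 genes and all lists were chosen with earlier results of these data known. Named were the 9 genes, the 3 genes most correlated with each, list genes 2-fold apart the same way in both tissues, a fixed set of list genes, Ackr2, Xist, Eif2s3y and Actb. A few further list genes and markers were named after their values were seen. Of 192 listed genes 173 were tested. Other settings were no floor or a floor at another percentile, median centring, quantile normalization, no filter or a filter on 8 arrays, averaged probe sets, every probe set fitted, an additive model, no trend and leaving out each array. Leaving out both WT or both ACKR2KO_ApcMin arrays was chosen after the data were seen, because of their sex markers.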

Additional observations from a re-analysis of the deposited data

Results flagged for a closer look

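Tumour effects on Hspa1b differed between the tissues for 2 of its 3 probe sets, by the test of the difference itself. The tumour effect in colon minus that in small intestine was -1.62 on the log2 scale for probe set 1427126_at (limma adjusted p = 0.0330 in the fit of every probe set) and -1.44 for 1427127_x_at (adjusted p = 0.0464), where 0.869% of probe sets were called lower. For 1427126_at the signals were 1765 and 1036 in ACKR2KO_ApcMin and ApcMin colon tumours against 3008 and 2059 in ACKR2KO and WT colon, and 1410.3 and 705 in ACKR2KO_ApcMin and ApcMin small-intestinal tumours against 742 and 481 in ACKR2KO and WT small intestine. The chosen probe set, 1452318_a_at, had -0.99 and was not called (limma adjusted p = 0.0726). The share of Hspa1a in these signals was not tested.

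The ACKR2 difference of Fkbp5 had opposite directions in tumours and in non-tumour tissue, in both tissues. It was -1.49 and -0.21 in colon and small-intestinal tumours and 0.53 and 0.71 in non-tumour colon and small intestine, so that the tumour mean minus the non-tumour mean was -1.47. This difference was not tested, the non-tumour values are those that chose the gene, and the small-intestinal tumour value turned to 0.10 under median centring. Hsd11b1 showed the same order, with -0.49 and -1.07 in tumours and 0.26 and 0.38 in non-tumour tissue, a difference of means of -1.10 that was likewise not tested.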

How the results depend on the processing

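Counts are of the 9 genes called. For the ACKR2 effect in tumours (0) the count was 1 with no floor, 1 with the filter on all 8 arrays and 2 with the additive model. The additive effect itself draws on the values that chose the genes, and in the other fits part of the spread does. For the tumour effect averaged over tissues (5) it was 0 with no filter, 2 with the mean of probe sets, 3 with the additive model, 2 without the trend, and 0 without both WT or without both ACKR2KO_ApcMin arrays. In colon (5) it was 0 with no filter, 2 with the additive model and 0 without either pair of arrays. In small intestine (1) it was 0 with no filter, the mean of probe sets, no trend or without either pair. For colon against small intestine without tumours (3) it was 1 with no filter and 0 without either pair. With 1 array left out, the counts ran from 0 to 0 for every tested comparison, and from 3 to 4 for the untested difference between ACKR2KO and WT. These fits have 1 residual degree of freedom, and 0 of all genes were called, apart from up to 62 for colon against small intestine, while at least 1240 had an unadjusted p under 0.05. Without both ACKR2KO_ApcMin arrays the tumour effect became ApcMin tumours minus WT tissue, which for Tsc22d3 averaged over tissues was 0.33. Without both WT arrays it became ACKR2KO_ApcMin tumours minus ACKR2KO tissue. Neither is the mean over ACKR2 status of the main fit. The counts of tumour effects without either pair are thus of other comparisons. Of 765 values under other settings 23 changed sign, and of 504 with 1 array left out 31 did; 1 of these was called in either setting. The cause was not tested. No paired analysis was possible because each group has 1 array and hence no shared replicate numbers; the model itself compares genotypes within a tissue. Values near the floor have no measured difference.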
